A study of Mus musculus with 6 samples.

Results

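The genes described here build and load the major histocompatibility complex (MHC) class I molecule: B2m, H2-K1, H2-D1, H2-Q10, Tap1, Tap2, Tapbp, Psmb8, Psmb9 and Nlrc5. They were found by the RefSeq accession that the array design gives for each non-control probe, and all 10 genes, on 13 probes, were present among the 20659 genes with a named probe. Lens RNA of 3-month-old mice was hybridised to single-colour Agilent arrays, 3 for each genotype. The knock-in mice carry W151C, a tryptophan to cysteine change at codon 151 of βB2-crystallin (Crybb2), introduced by CRISPR/Cas9 editing, and the comparison asked how transcript levels differ from those of wild type controls of the same age. βB2-crystallin is a structural protein of lens fibre cells. The labels name neither a mouse strain nor a founder line, and they leave unsaid how many animals went into an array.

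A class I molecule is a polymorphic heavy chain paired with the light chain β2-microglobulin and a short peptide, shown at the cell surface to CD8 T cells and natural killer cells. The proteasome cuts the peptides, the Tap1/Tap2 transporter pumps them into the endoplasmic reticulum, and tapasin helps load them. Nlrc5 is the transactivator that many of these genes share, and interferons raise most of them. The lens is avascular and holds few immune cells.

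The arrays' 75th percentile of signal lay at 167 to 201 on the knock-in arrays (replicates 1, 2 and 4) and 120 to 698 on the wild type arrays (replicates 1, 2 and 3), and 45.5% to 58.4% of spots were well above background. No spot was saturated. Levels below are the log2 of a probe's processed signal minus that of its array's 75th percentile, so 0 is the 75th percentile and a difference of 1 is a doubling; levels of different probes cannot be set against each other. Lens fibre markers lay at a median percentile of 99.3 of the mean levels of all probes. Wild type array 3 stood apart from the others, with a correlation of 0.953 and 0.961 over genes against 0.996 between wild type arrays 1 and 2. It was also scanned on another day. Knock-in array 4 stood apart in photoreceptor genes, described with the marker lists below. Slides were inferred: arrays with the same scan time in their file headers were taken to share a slide. On that reading every knock-in array lay on slide 1 and wild type arrays 1 and 2 on slide 2. The effects of slide and of genotype therefore cannot be told apart. Values within the scan day that the genotypes share leave out wild type array 3.

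Upstream sequence is shown first for the light chain and the 3 heavy chain genes, because they moved in opposite directions: B2m, H2-K1 and H2-D1 were higher and H2-Q10 lower in knock-in lenses. Each window runs from 250 bases before to 50 after the annotated start, 5′ to 3′ on the gene's strand, from RefSeq on GRCm38.p6. The windows are chr2:122147437-122147736 (plus strand) for B2m, chr17:34000298-34000597 (minus strand) for H2-K1, chr17:35262844-35263143 (plus strand) for H2-D1 and chr17:35469839-35470138 (plus strand) for H2-Q10. In B2m the capitals mark a match to an interferon-stimulated response element and a match to the NF-kB site. In H2-K1 and H2-D1 they mark NF-kB matches, and in H2-Q10 the stretch that aligns with them.
B2m: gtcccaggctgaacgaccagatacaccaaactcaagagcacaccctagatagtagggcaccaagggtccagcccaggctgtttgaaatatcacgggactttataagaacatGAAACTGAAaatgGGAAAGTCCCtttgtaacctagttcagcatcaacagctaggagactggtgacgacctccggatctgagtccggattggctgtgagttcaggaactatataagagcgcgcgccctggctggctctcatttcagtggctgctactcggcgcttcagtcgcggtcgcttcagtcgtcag
H2-K1: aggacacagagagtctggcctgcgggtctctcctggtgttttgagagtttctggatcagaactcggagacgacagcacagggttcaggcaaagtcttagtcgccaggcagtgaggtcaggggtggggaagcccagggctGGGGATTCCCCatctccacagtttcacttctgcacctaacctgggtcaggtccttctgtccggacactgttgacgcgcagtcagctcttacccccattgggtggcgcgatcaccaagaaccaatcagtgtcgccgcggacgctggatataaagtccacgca
H2-D1: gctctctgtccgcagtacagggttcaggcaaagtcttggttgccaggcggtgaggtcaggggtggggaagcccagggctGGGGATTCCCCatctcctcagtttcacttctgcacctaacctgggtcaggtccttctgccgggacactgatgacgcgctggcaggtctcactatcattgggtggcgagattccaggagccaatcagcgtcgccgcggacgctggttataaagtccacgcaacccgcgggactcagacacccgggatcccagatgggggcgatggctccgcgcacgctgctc
H2-Q10: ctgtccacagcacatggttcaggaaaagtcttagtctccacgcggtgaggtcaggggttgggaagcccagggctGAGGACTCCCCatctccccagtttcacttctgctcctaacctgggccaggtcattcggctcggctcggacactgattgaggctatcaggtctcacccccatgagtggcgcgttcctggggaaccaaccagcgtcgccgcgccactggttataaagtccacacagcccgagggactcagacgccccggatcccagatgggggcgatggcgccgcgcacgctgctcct

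Motifs were searched on both strands as GAAANNGAA (interferon-stimulated response element), TTCNNNGAA (gamma-activated site), the NF-kB consensus by name, and CCAAT (Y box). B2m held GAAACTGAA from -139 to -131 relative to the start and an NF-kB match on the minus strand from -126 to -117. It also held a Y box from -53 to -49. H2-K1 (from -16 to -12 and from 8 to 12) and H2-D1 (from -76 to -72 and from -53 to -49) held 2 each. H2-Q10 held no match to any of the motifs as spelled here. Other spellings were not searched, so the lack of a match does not mean that an element is absent. The windows of H2-K1, H2-D1 and H2-Q10 share the string agtttcacttct, which these spellings do not cover. The stretch GGGGATTCCCC of H2-K1 and H2-D1 holds a pair of overlapping NF-kB matches, each of which reads as a match on both strands. The aligned stretch of H2-Q10 is GAGGACTCCCC, which lies from -176 to -166 and differs by G2A and T6C (the H2-D1 base first, counted from 1 at the first base of the stretch). With 12 bases on each side, H2-D1 and H2-Q10 differed at 3 of 35 positions there. Over whole windows H2-D1 and H2-Q10 were identical at 256 of 290 paired bases (88.3%), H2-K1 and H2-D1 at 211 of 239 (88.3%), and H2-K1 and H2-Q10 at 199 of 231 (86.1%). Of 32851 windows in the table, 8.56% held the response element, 8.30% the gamma-activated site, 4.51% the NF-kB site and 37.4% the Y box. Among the other members with a window, Psmb8 held a gamma-activated site match (TTCCCAGAA, from -97 to -89), while Tap1, Tapbp and Psmb9 held Y boxes only. Windows were at hand for 8 of the 10 members, and Tap2 and Nlrc5 had none in the table. A match is a string of letters and not evidence that a factor binds.

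Of the 10 class I genes, 8 could be tested, and 5 of them (B2m, H2-K1, H2-D1, Tapbp and Psmb9) rose in knock-in lenses, 1 (H2-Q10) fell, and Tap2 and Nlrc5 did not pass. The test was limma with Benjamini-Hochberg adjustment over 12781 genes at a threshold of 0.05, which called 13.3% of all genes higher and 12.6% lower. Tap1 and Psmb8 did not meet the filter, which asks that a probe be well above background on every array of a genotype. All 3 knock-in arrays lay above all 3 wild type arrays for 5 of the 8 genes, where 22.7% of all genes tested did, and below them for 1, where 23.1% did. The median difference of the 8 was 0.75, against -0.04 for all genes. The members were chosen with earlier results of these data known, so these shares and medians are no test of the set. With the scan day as a block the same genes were called, 5 higher and 1 lower, beside 19.6% of all genes higher and 24% lower. With slide as a random block only B2m passed, beside 2.83% of all genes higher and 2.03% lower. The 5 rises became 3 with median scaling, with normexp background correction or without knock-in array 2, wild type array 1 or wild type array 2. They became 4 with quantile normalization, without the filter, or without knock-in array 1 or wild type array 3. Without the filter the 4 included Psmb8 (difference 2.00, limma adjusted p = 0.0394), which only knock-in array 4 measured well above background. Fewer cells of a type and less RNA per cell cannot be told apart in whole lenses.

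**Figure D1:**
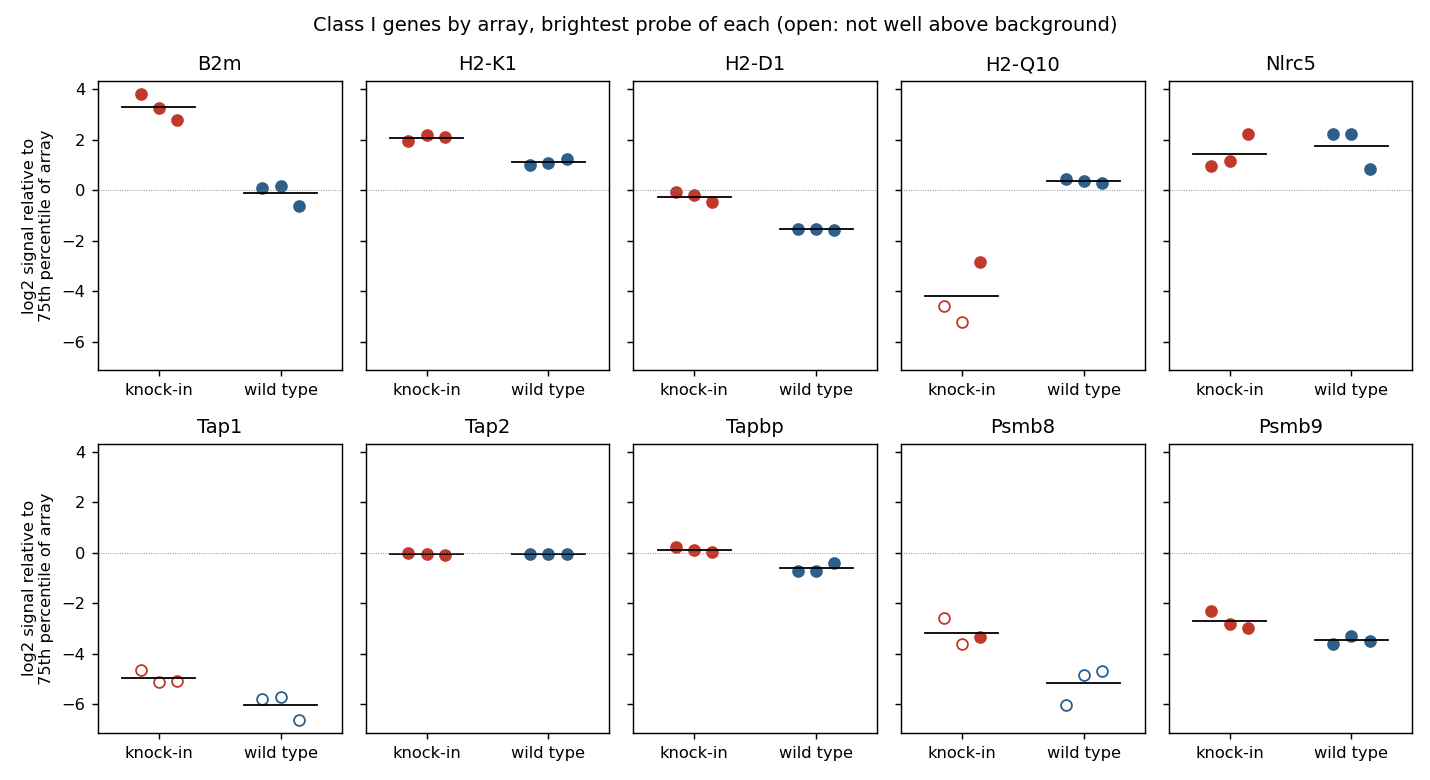
Level of each class I gene on every array (log2 signal relative to the array's 75th percentile), knock-in arrays 1, 2 and 4 in red and wild type arrays 1, 2 and 3 in blue, with the group mean as a line and open points where the probe was not well above background. B2m, H2-K1, H2-D1, Tapbp and Psmb9 have every knock-in array above every wild type array, H2-Q10 the reverse, and Tap2 and Nlrc5 overlap. Tap1 and Psmb8, which were not tested, also have every knock-in array above every wild type array, but near background. The only filled point in their panels is Psmb8 on knock-in array 4.

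B2m, the light chain that every class I molecule needs in order to reach the surface, rose the most of the 8 genes tested. Its level was 3.80, 3.24 and 2.78 in knock-in lenses (arrays 1, 2 and 4) and 0.08, 0.16 and -0.62 in wild type lenses (arrays 1, 2 and 3). The groups did not overlap, and the order within each genotype put knock-in array 1 highest and wild type array 3 lowest. The means were 3.27 ± 0.51 in knock-in and -0.13 ± 0.43 in wild type lenses (SD, n = 3 arrays each), a difference of 3.40 (SE 0.32, limma adjusted p = 0.00072) or 10.55-fold. This difference stood at the 98.7th percentile of absolute differences over all genes tested. It was 3.15 within the shared scan day (adjusted p = 0.00083) and 3.48 once slide was a random block (adjusted p = 0.0141). Without knock-in array 1 it was 3.14 (adjusted p = 0.00487).

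The classical heavy chains H2-K1 and H2-D1, which carry the peptide groove, rose as well, by 0.97 and 1.28 on the log2 scale. H2-K1 was at 1.93, 2.17 and 2.10 in knock-in lenses and at 1.00, 1.06 and 1.24 in wild type lenses, in the same array order. Its means were 2.07 ± 0.12 in knock-in and 1.10 ± 0.12 in wild type lenses (SD, n = 3 each), a difference of 0.97 (SE 0.16, adjusted p = 0.00578), 1.96-fold. The groups were separated by more than the spread within either of them. That probe is printed 10 times on each array, and its spots varied by 1.48% to 4.26% (coefficient of variation). A dimmer H2-K1 probe gave -0.81, -0.88 and -0.87 in knock-in lenses and -1.95, -1.81 and -1.87 in wild type lenses. Its difference of 1.02 (SE 0.15, adjusted p = 0.00476 over all probes) was of nearly the same size as that of the brighter probe. Over probes, 10.8% of 21070 were called higher and 12.8% lower, and of the 13 probes of these genes 6 were higher, 1 lower, 3 did not pass and 3 were not tested.

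H2-D1 was at -0.09, -0.21 and -0.49 on the knock-in arrays and at -1.53, -1.52 and -1.57 on the wild type arrays. The wild type arrays lay almost on top of each other, and the lowest knock-in array was well above them. The means of -0.26 ± 0.20 in knock-in and -1.54 ± 0.03 in wild type lenses (SD, n = 3 each) differed by 1.28 (SE 0.16, adjusted p = 0.00234), 2.43-fold. Within the shared scan day the differences were 1.04 for H2-K1 (adjusted p = 0.00239) and 1.26 for H2-D1 (adjusted p = 0.00215). Neither passed once slide was a random block (adjusted p = 0.0947 and 0.0519, in that order). The heavy chain genes are close in sequence, so a probe named for one may also bind transcripts of another. Probe sequences were not used here. The labels give no strain, and whether the genotypes carry the same MHC haplotype was not tested.

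H2-Q10 went the other way. It encodes a class I heavy chain of the Q region that is known in mice as a secreted protein made mainly by the liver. Its brighter probe was at -4.58, -5.21 and -2.83 in knock-in lenses (arrays 1, 2 and 4) and at 0.44, 0.35 and 0.27 in wild type lenses (arrays 1, 2 and 3). The wild type arrays agreed closely, while the knock-in arrays spread widely and only array 4 was well above background. In unscaled signal this was 7.004, 5.416 and 26.5 in knock-in lenses and 193, 153 and 841 in wild type lenses. The means were -4.21 ± 1.23 in knock-in and 0.35 ± 0.09 in wild type lenses (SD, n = 3 each), a log2 difference of -4.56 (SE 0.56, adjusted p = 0.0019). With 2 of 3 knock-in arrays not above background, the knock-in mean is no measured level. H2-Q10 met the filter through its wild type arrays alone, so its SE and adjusted p rest in part on readings near background. The size of the fall depends on how background is handled, since normexp correction with an offset of 50 gave -1.98 (adjusted p = 0.00152). Within the shared scan day the difference was -4.60 (adjusted p = 0.00326), without knock-in array 4 it was -5.25 (adjusted p = 0.000523), and it did not pass once slide was a random block (adjusted p = 0.058).

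The other H2-Q10 probe was at -3.09, -3.31 and -3.74 on the knock-in arrays and at -4.34, -3.60 and -3.61 on the wild type arrays. Only wild type array 3 was well above background on it, so it was not tested and its values are not read as a difference. The fall rests on 1 probe.

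**Figure D2:**
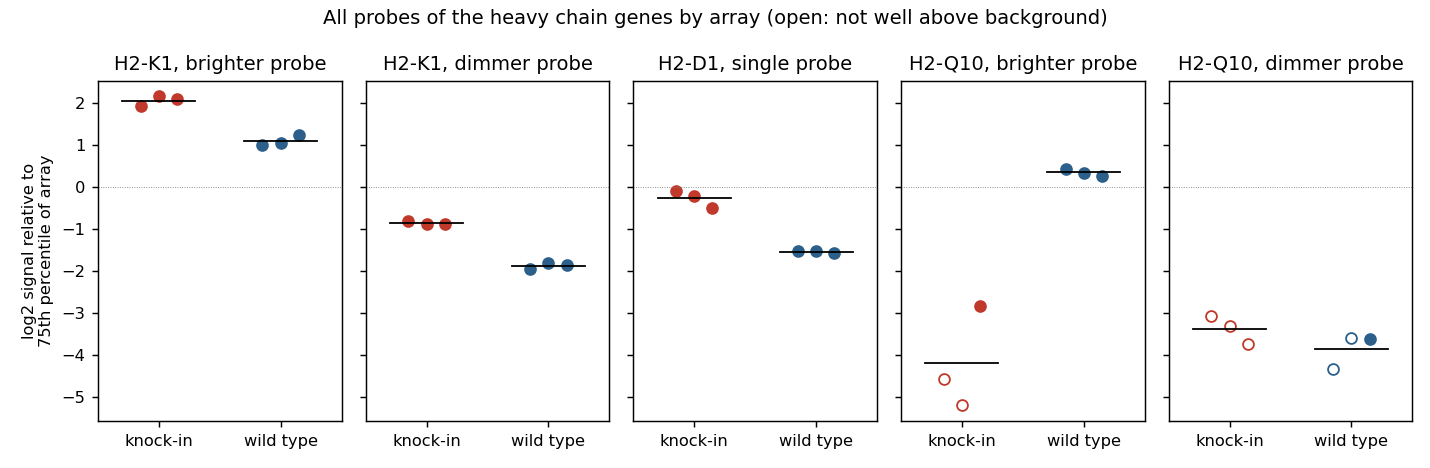
Level of every probe of H2-K1, H2-D1 and H2-Q10 on each array (log2 signal relative to the array's 75th percentile), knock-in in red and wild type in blue, with group means as lines and open points where the probe was not well above background. Both H2-K1 probes and the H2-D1 probe are higher in knock-in by 0.97, 1.02 and 1.28, the brighter H2-Q10 probe has a difference of -4.56, and the dimmer H2-Q10 probe is near background throughout.

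Set against the classical genes array by array, H2-Q10 minus the mean of H2-K1 and H2-D1 was -5.50, -6.19 and -3.64 in knock-in lenses and 0.71, 0.58 and 0.43 in wild type lenses. The difference between genotypes in this quantity was -5.68 (SE 0.77). Of the knock-in arrays only array 4 was well above background for H2-Q10, so the size of this difference is not a measured one. Every knock-in array lay below every wild type array, and the exact two-sided permutation test gave p = 0.1, the smallest value that 3 against 3 arrays allow. The orders already given for the 3 genes fix this order and its p, which therefore add no support. The difference was -2.78 with normexp correction and -6.42 without knock-in array 4.

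Transcripts that load the heavy chain split between those that rose and those that did not pass. Tapbp, which encodes tapasin, the chaperone that bridges the peptide transporter and the empty class I molecule, was at 0.23, 0.13 and 0.02 in knock-in lenses and at -0.72, -0.71 and -0.42 in wild type lenses. The groups did not overlap, and the difference was 0.74 (SE 0.16, adjusted p = 0.0166), 1.67-fold. It was 0.84 within the shared scan day (adjusted p = 0.00412), but the call was lost once slide was a random block (adjusted p = 0.184), with median scaling (0.0984), with normexp (0.0744) and without the filter (0.0624). Leaving out knock-in array 2, wild type array 1 or wild type array 2 also ended it (adjusted p = 0.0773, 0.0877 and 0.0753, in that order).

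Tap2, the partner of Tap1 in the transporter, was at -0.02, -0.05 and -0.09 in knock-in lenses and at -0.06, -0.04 and -0.03 in wild type lenses. The arrays of both genotypes interleaved, with a difference of -0.01 (SE 0.14, adjusted p = 0.97). Tap1 was not well above background on any of the 6 arrays, although its probe is printed 10 times. Its values of -4.65, -5.12 and -5.07 in knock-in and -5.80, -5.71 and -6.61 in wild type lenses are therefore not read as levels.

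Psmb8 and Psmb9 encode catalytic subunits of the immunoproteasome, the form of the proteasome that interferon gamma induces. Psmb9 was at -2.28, -2.82 and -2.99 in knock-in lenses and at -3.59, -3.29 and -3.51 in wild type lenses. These did not overlap, and the difference of 0.76 (SE 0.22, adjusted p = 0.0443) was close to the threshold. It was 0.74 within the shared scan day (adjusted p = 0.0493). The call held in 6 of 16 other settings, and was lost among others with quantile normalization (0.0547), normexp (difference 0.36, adjusted p = 0.57) and slide as a random block (0.346). Leaving out any single array but knock-in array 4 also ended it, with adjusted p of 0.0744 and 0.109 without knock-in arrays 1 and 2, and 0.148, 0.0811 and 0.0509 without wild type arrays 1, 2 and 3.

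Psmb8 was at -2.56, -3.60 and -3.34 in knock-in lenses and at -6.00, -4.82 and -4.68 in wild type lenses. Only knock-in array 4 was well above background, so it was not tested with the other genes. Its knock-in mean was 1.84-fold that of wild type when wild type is held at the lowest signal counted as above background. Only 1 of 3 knock-in arrays measured it, and the mean takes in the others, so this fold is no lower bound. The subunits that Psmb8, Psmb9 and Psmb10 replace in the standard proteasome, Psmb5, Psmb6 and Psmb7, differed by -0.13, -0.23 and -0.14 and did not pass (adjusted p = 0.544, 0.337 and 0.626). Psmb10, the remaining immunoproteasome subunit, named after its value was seen, differed by 0.06 (SE 0.23, adjusted p = 0.863).

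Nlrc5, the transactivator of class I genes, did not pass the test. Its brighter probe was at 0.95, 1.17 and 2.22 in knock-in lenses (arrays 1, 2 and 4) and at 2.23, 2.21 and 0.84 in wild type lenses (arrays 1, 2 and 3). Knock-in array 4 sat with wild type arrays 1 and 2, and wild type array 3 was lowest of all, so the groups overlapped. The difference was -0.31 (SE 0.47, adjusted p = 0.668), and within the shared scan day -0.77 (adjusted p = 0.145). A dimmer Nlrc5 probe was at -1.38, -1.59 and -1.72 in knock-in lenses and at -1.36, -1.15 and -2.80 in wild type lenses. It differed by 0.21 (adjusted p = 0.749 over all probes), with wild type array 3 again lowest.

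**Figure D3:**
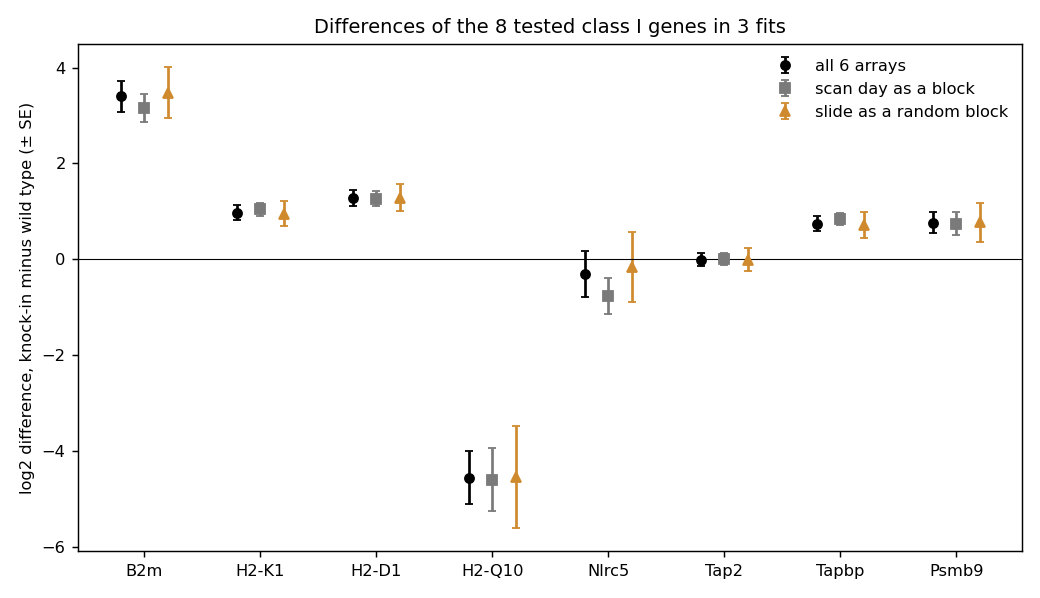
Log2 difference, knock-in minus wild type, with its standard error for the 8 class I genes tested, in the fit of all 6 arrays, with the scan day as a block and with slide as a random block. B2m keeps a difference above 3 and H2-Q10 one below -4 in all 3 fits, and the error bars are widest with slide as a random block.

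Other class I heavy chain genes, from a list of 40 of which 27 had a probe and 13 were tested, gave 4 rises and 1 fall with a median difference of 0.39. Over all genes 13.3% were called higher and 12.6% lower. Cd1d1, a class I-like molecule that presents lipids, was at -0.73, -0.89 and -1.02 in knock-in lenses and at -1.95, -1.95 and -2.18 in wild type lenses, and rose by 1.15 (SE 0.16, adjusted p = 0.00359). H2-Q6, a Q region neighbour of H2-Q10, rose by 1.09 (SE 0.18, adjusted p = 0.00578). H2-T23, which encodes Qa-1, a ligand of inhibitory receptors on natural killer cells, rose by 0.75 (SE 0.15, adjusted p = 0.0126). Hfe, a class I-like regulator of iron uptake, fell, with a difference of -0.71 (SE 0.16, adjusted p = 0.0173), knock-in arrays at 0.81, 1.09 and 0.90, and wild type arrays at 1.71, 1.68 and 1.53. The fourth rise, H2-T24 at 1.13 (adjusted p = 0.0394), was named after its value was seen. With the scan day as a block 5 rose and 3 fell, where 19.6% of all genes were called higher and 24% lower. None of the 13 passed with slide as a random block.

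Of 17 other genes of peptide supply and loading, all tested, 3 rose and none fell, with a median of 0.20, where 13.3% of all genes were called higher. With the scan day as a block 5 rose, where 19.6% of all genes were called higher. Lnpep, an aminopeptidase that trims peptides in endosomes, was at -1.18, -1.54 and -1.35 in knock-in lenses and at -3.39, -3.55 and -3.29 in wild type lenses. It rose by 2.05 (SE 0.17, adjusted p = 0.000433), 1 wild type array being not well above background, and still passed once slide was a random block (adjusted p = 0.0111). Uggt1, which checks the folding of glycoproteins, rose by 1.03 (SE 0.18, adjusted p = 0.00716) and Tpp2, a cytosolic peptidase, by 0.75 (SE 0.15, adjusted p = 0.0134). The remaining 14, among them the loading complex chaperones Calr, Canx and Pdia3, lay between -0.31 and 0.39.

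**Figure D4:**
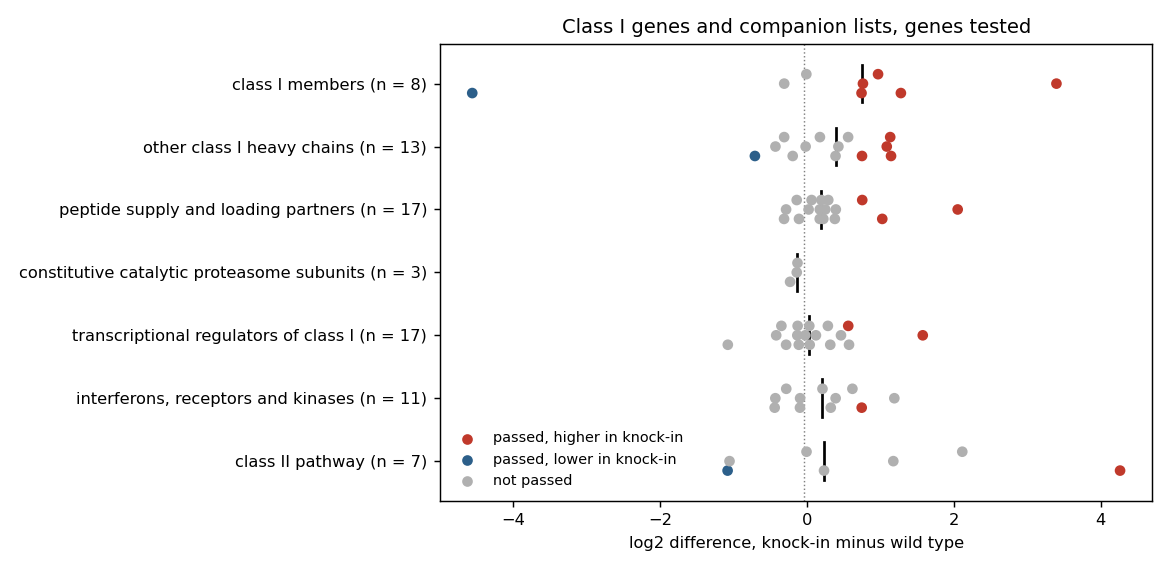
Log2 difference, knock-in minus wild type, of each tested gene (points) and the median (bar) for the class I members and 6 companion lists, red and blue where the gene passed the test and grey where it did not, with the median of all genes as a dotted line. The members' median is 0.75 and those of the other lists lie between -0.14 and 0.39.

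Among transcriptional regulators of class I genes, 17 of 21 were tested, 2 rose and none fell, with a median of 0.03. That is a share near the 13.3% of all genes called higher. Within the shared scan day 3 rose and 1 fell, where 19.6% of all genes were called higher and 24% lower. The fall was that of Creb1, at -1.91 (adjusted p = 0.00887), named after its value was seen. Irf9, the DNA-binding part of the complex that type I interferon activates, was at 1.32, 1.91 and 1.78 in knock-in lenses and at 0.03, 0.09 and 0.16 in wild type lenses. It rose by 1.58 (SE 0.19, adjusted p = 0.00196). Irf3, a factor activated by nucleic acid sensing, rose by 0.56 (SE 0.14, adjusted p = 0.028). Rfx5, Irf7 and Nfya did not meet the filter. Among interferons, their receptors and kinases, 11 of 20 were tested, and Ifnar2, a chain of the type I interferon receptor, rose by 0.75 (SE 0.22, adjusted p = 0.0477). It was the only gene of that list to pass, 1 of 11, where 13.3% of all genes were called higher. The list's median was 0.21. Among the interferons themselves, named after their values were seen, Ifnb1, Ifng, Ifna4, Ifnk and Ifne were not well above background on any array. Ifnl3 was so on all 6 arrays, Ifna1 on 2 knock-in and 3 wild type arrays and Ifna2 on 3 wild type arrays, with differences of -0.10, -0.28 and -0.44 that did not pass.

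Class II genes, which present peptides on professional antigen-presenting cells, gave 1 rise and 1 fall among 7 tested of 13, with a median of 0.23. These counts are near the shares over all genes, 13.3% called higher and 12.6% lower. With the scan day as a block there were 1 rise and 2 falls, where 19.6% of all genes were called higher and 24% lower. Ctss, the protease cathepsin S that cuts the class II invariant chain, was at 1.81, 0.30 and -0.05 in knock-in lenses and at -3.19, -2.18 and -5.37 in wild type lenses. The difference was 4.27 (SE 0.84, adjusted p = 0.0118), 1 wild type array being not well above background. H2-Ob, part of a regulator of class II loading, fell, with a difference of -1.08 (SE 0.30, adjusted p = 0.0391).

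Markers of other cells were read on the same arrays. Of 27 leukocyte markers 26 had a probe, 9 were well above background on all arrays and 8 on none (Itgax, Lyz2, Cx3cr1, Cd3g, Ncr1, S100a8, S100a9 and Laptm5). Their summed signal, in multiples of the array's 75th percentile, was 28.6, 17.2 and 17.9 in knock-in lenses (arrays 1, 2 and 4) and 55.6, 56.3 and 18.8 in wild type lenses (arrays 1, 2 and 3). Knock-in arrays 2 and 4 lay below every wild type array, and knock-in array 1 lay between wild type array 3 and the other two. The brightest probes weigh most in such a sum, here Itgam, at log2 levels of 3.33, 2.60 and 2.97 in knock-in and 5.12, 5.21 and 3.51 in wild type lenses, and Cd4, at 2.59, 2.26 and 2.15 in knock-in and 3.76, 3.42 and 2.02 in wild type lenses. Of 15 tested, 3 rose and 2 fell, with a median of -0.31, where 13.3% of all genes were called higher and 12.6% lower. Within the shared scan day 3 rose and 8 fell, their median being -0.66, where 19.6% of all genes were called higher and 24% lower. Tyrobp, an adaptor of myeloid receptors, reached at least 5.11-fold the wild type level (adjusted p = 0.00291) and Coro1a, an actin-binding protein of leukocytes, at least 3.80-fold (adjusted p = 0.0181). Neither was well above background in wild type lenses, so both met the filter through their knock-in arrays alone. Their adjusted p rest in part on wild type readings near background. C1qc, a complement chain made by macrophages, was at 1.52, -0.39 and -0.56 in knock-in lenses and at -3.83, -2.96 and -5.80 in wild type lenses, and rose by 4.39 (SE 0.82, adjusted p = 0.00978), with 1 wild type array well above background. C1qc too met the filter through its knock-in arrays alone, and its difference and adjusted p rest partly on wild type readings near background. The integrin gene Itgam fell, with a difference of -1.65 (SE 0.47, adjusted p = 0.0404). Cd8a, named after its value was seen, fell too (adjusted p = 0.0477). Only wild type lenses gave a measured level of Cd8a, so its adjusted p rests partly on knock-in readings near background. Tyrobp, C1qc, Coro1a and Ctss were each highest on knock-in array 1, the array on which B2m was highest too. These 4 were set side by side after their values were seen. Other myeloid markers, named likewise, did not pass and differed in sign, with C1qa at 2.02 and Csf1r at 0.79, but C1qb at -0.86, Fcer1g at -0.39, Adgre1 at -0.39 and Cd14 at -0.31. The part of these markers in the B2m result was not tested.

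Pigment and retina markers stood out on knock-in array 4. The summed signal of the 11 came to 2.48, 2.17 and 18.4 in knock-in lenses (arrays 1, 2 and 4) and to 1.49, 1.64 and 0.84 in wild type lenses, each of the 11 being well above background on at least 1 array. Gnat1, a transducin of rod photoreceptors, was at -1.47, -1.12 and 3.13 in knock-in lenses and at -2.99, -4.06 and -3.20 in wild type lenses (adjusted p = 0.0588). Sag, Rcvrn and Pde6b, photoreceptor genes named after their values were seen, were not tested and were also highest on knock-in array 4, at 1.39, 1.87 and -0.83. Dct, Tyrp1, Tyr and Pmel, genes of pigment cells, differed by 2.50, 1.29, 0.16 and -0.0023 and did not pass (adjusted p from 0.0555 to 0.996). Knock-in array 4 is also the one knock-in array on which H2-Q10 and Psmb8 were well above background, and that on which the brighter Nlrc5 probe was highest among knock-in arrays (its dimmer probe was lowest of the knock-in arrays there, at -1.72). The scaled level of Psmb8 was highest on knock-in array 1, at -2.56, against -3.34 on array 4. Without knock-in array 4, the 5 rises among the class I genes were all called and H2-Q10 remained lower.

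Of 8 endothelial markers, 5 were not well above background on any array (Cdh5, Tek, Emcn, Cldn5 and Tie1), and the sum was 2.77, 2.84 and 2.52 in knock-in and 3.91, 4.48 and 3.20 in wild type lenses. The 3 tested, Egfl7, Kdr and Pecam1, differed by -0.51, -0.61 and -0.41 and did not pass (adjusted p = 0.0654, 0.152 and 0.401), but within the shared scan day Kdr at -0.89 (adjusted p = 0.0102) and Pecam1 at -0.81 (adjusted p = 0.00792) fell. Lens fibre markers gave sums of 1061, 961 and 995 in knock-in lenses and 2371, 2802 and 792 in wild type lenses, with 4 of 8 lower, among them Lim2, Crybb1 and Mip at -2.35, -1.51 and -1.21. Wild type array 3 had the lowest fibre sum of all, and within the shared scan day 7 of 8 were lower, with a median of -1.43 against -0.91. Of all companion genes called, Lnpep, Lim2 and Crybb1 alone were called in the fit with the random slide block. Lens epithelium markers gave 10.22, 11.32 and 11.03 in knock-in and 13.5, 12.5 and 16.8 in wild type lenses, and 1 of 6 fell, Foxe3 at -1.11 (adjusted p = 0.0148), against 3 of 6 with the scan day as a block. Of all genes tested, 12.6% were called lower in the fit of all 6 arrays and 24% within the shared scan day. The 1 of 6 epithelium markers is near the first of these shares. The part of the shifts in these marker lists in the class I results was not tested.

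**Figure D5:**
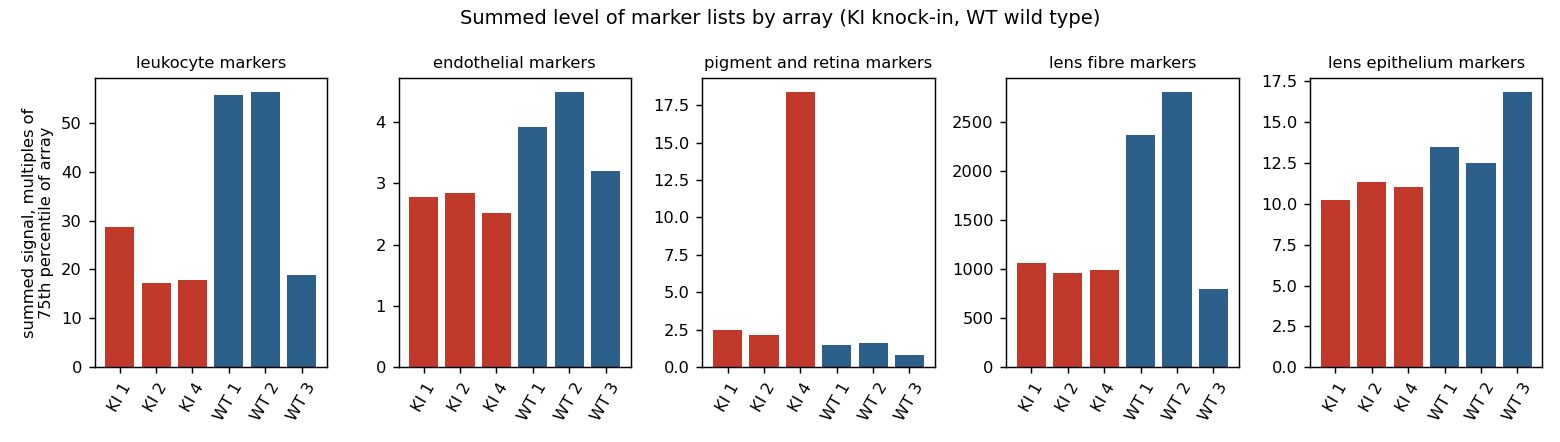
Summed signal of 5 marker lists on each array, in multiples of the array's 75th percentile, knock-in arrays in red and wild type arrays in blue. Leukocyte and fibre sums are highest on wild type arrays 1 and 2, and the pigment and retina sum is highest on knock-in array 4 at 18.4.

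Genes whose profiles over the 6 arrays were most like that of B2m, each profile centred on its own mean, were Oas1a, Gal and Cox6a2. Their root mean square differences from B2m were 0.11, 0.12 and 0.13 on the log2 scale, where the value for Oas1a rests in wild type on 3 arrays not well above background. Oas1a, an interferon-induced oligoadenylate synthetase, was at least 3.02-fold higher in the knock-in group, Gal, the neuropeptide galanin, rose by 3.36 and Cox6a2, a subunit of cytochrome c oxidase, by 3.43. Among those most like H2-Q10 were Birc7, an inhibitor of apoptosis family member, and Klhl35, a kelch-like protein, at 0.57 and 0.59. Their differences between genotypes were -5.24 and -4.56. Of the 3 knock-in arrays, 2 measured Klhl35 above background and all 3 measured Birc7. All these genes were picked for likeness over the same 6 arrays, so differences near those of B2m and H2-Q10 follow from the choice.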

How the data were processed

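Lens RNA was amplified to Cy3-labelled cRNA for single-colour arrays, per the labels' protocols. The deposited values are intensities of single spots: a processed signal from which the scanner software, per the file headers Feature Extraction 11.0.1.1, had taken background within the array, and median spot and background signals. The submitters' processing notes name version 9.1. Probes were designed on mm9 per the file headers, so no probe coordinates are given.

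The members and the gene lists were chosen with earlier results of these data known. From the processed signal, log2 was taken, each array's 75th percentile over 43020 non-control spots subtracted, flagged spots left out and spots of a probe averaged. A probe was kept if at least 50% of its spots were well above background on all arrays of either genotype (21073 of 39429). Symbols came through RefSeq accessions (GRCm38.p6; 27234 probes, 20659 genes), and the kept probe with the highest mean stood for a gene. The fit used limma 3.58.1 in R 4.3.3 (lmFit, eBayes, 4 residual degrees of freedom), was tested on simulated data, and its p-values rest on array-to-array spread, part of which may be technical. Where a whole genotype was not well above background, a fold is taken against, per array, the lowest signal counted as above background or the probe's own where that is higher. Such a fold is a bound only if every array of the other genotype was well above background. Promoter windows were aligned with Biopython 1.88. Named are all members and their probes, all genes of a list with 5 or fewer tested, otherwise its up to 4 smallest p past the threshold, and the 3 genes most like B2m and H2-Q10, and a few genes this takes in are not reported here. Alternatives covered scaling, background, filters, flags, probe rule, blocks and leaving out each array. Normexp, planned on mean signals, was run on median signals. Arrays were the samples, as the labels call them biological replicates, and their number limits the precision.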

Additional observations from a re-analysis of the deposited data

How the results depend on the processing

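Directions of B2m, H2-K1, H2-D1, H2-Q10, Tapbp, Psmb9 and Nlrc5 were the same in every alternative that gave a value. B2m passed in 16 of 16 (differences 3.01 to 3.64), H2-K1 and H2-D1 in 15 of 16 (0.76 to 1.04 and 0.85 to 1.39), and H2-Q10 in 14 of 15 (-5.29 to -1.98). Tap2 turned to 0.0172 with the replicate block, ranged from -0.0244 to 0.00955 on leaving out 1 array (positive without knock-in array 4), and passed in none. The number of genes called, 3310, was 1433 with normexp, 2002 without the filter, 5563 with the scan day as a block, 621 with the random slide block and 5445 with the replicate block, and 1538 to 5658 on leaving out 1 array. Of the calls 51.3% were higher, against 40.9% with median scaling. For probes the count of 4967 became 9244, 669 and 9381 with the day, slide and replicate blocks. Of the class I genes, 5 higher became 4 with quantile normalization or without the filter. The count was 3 with median scaling, 3 with normexp and 1 with the random slide block. It was 3 to 5 on leaving out 1 array (3 without knock-in array 2, wild type array 1 or wild type array 2). The 1 lower became 0 with slide as a random block, 0 with probes above background on all arrays, a filter that drops H2-Q10, and 2 with the replicate block, which added Nlrc5 (-1.16, adjusted p = 0.0039). The genotypes share only replicate numbers 1 and 2, whose deviations correlated at 0.17 and -0.22, so the numbers are not read as pairs and that block leaves 1 residual degree of freedom. H2-Q10 minus the classical heavy chains lay between -6.49 and -2.78, with no value for slide as a random block or the filter that drops H2-Q10. The cause of these changes was not tested.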
